A study of Mus musculus with 6 samples.

Results

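The 39 genes described here encode the machinery that copies DNA in S phase, together with enzymes that supply its nucleotides and regulators that open the phase. They were listed by function, though with earlier results of these data known. Every array probe set whose only gene symbol was one of the 39 was kept, and the probe sets of a gene were averaged on each array. All 39 were measured, among 20848 genes on the array. They were compared between 3 TGF-β3 samples and 3 vehicle samples of EpH4 cells, a mouse mammary epithelial line that forms polarised sheets. The TGF-β3 monolayers had 1 ng/ml of the ligand for 24 hours in medium without serum, and the vehicle monolayers had the same medium without it. Both groups had first been held at confluence for 7 days to form tight junctions, and each sample pooled the RNA of 3 wells from 1 of 3 experiments. Samples were paired by the number in their titles, which the labels do not tie to the 3 experiments. Whole monolayers were measured, so more cycling cells and more RNA per cycling cell cannot be told apart. All cells came from 1 line, and replicates are cultures of it.

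DNA replication starts at origins marked by the origin recognition complex, where CDC6 and CDT1 load the ring of MCM2 to MCM7 that will unwind the helix. CDC45 and the GINS complex turn that ring into an active helicase, primase and DNA polymerases copy the strands along the PCNA clamp, and FEN1 and DNA ligase I join the lagging-strand pieces. Many of these genes are switched on together by E2F transcription factors when cyclin E and CDK2 release them from the retinoblastoma protein, and TGF-β is known as a brake on this step in many epithelial cells.

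Of the 39 genes, 32 matched at least 1 promoter in the RefSeq table of mouse promoters (GRCm38.p6), with 36 windows in all, each running from 250 bases before to 50 bases after a gene's start. The windows were searched on both strands for TTCCCGC and TTGGCGC, which are forms of the core of the E2F site. Other forms were not searched, so a gene without a match may still hold a core. Matches on opposite strands can overlap, as they did in Mcm3 and Rfc1. At least 1 match was present in 17 of the 32 genes (53.1%), against 10.7% of the array's genes with a promoter in the table and 7.79% of all genes in it. Counted by window, 18 of 36 (50%) held a match, against 6.81% of all 32851 windows. Of the genes given array by array in the results, the 5 below had a match within the 120 bases before the start. They are shown because these letters were shared by members in different roles, and their values follow under their roles. Each line is the 120 bases that end at the base before the start, 5′ to 3′ on the gene's strand, with the matches in capitals.
Mcm6, chr1:128359706-128359825, minus strand: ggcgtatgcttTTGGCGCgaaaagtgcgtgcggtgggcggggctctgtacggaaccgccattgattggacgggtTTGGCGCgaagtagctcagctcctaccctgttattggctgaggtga
Mcm7, chr5:138171267-138171386, minus strand: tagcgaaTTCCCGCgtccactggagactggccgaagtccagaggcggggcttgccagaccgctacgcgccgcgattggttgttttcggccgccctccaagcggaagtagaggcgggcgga
Prim1, chr10:128015095-128015214, plus strand: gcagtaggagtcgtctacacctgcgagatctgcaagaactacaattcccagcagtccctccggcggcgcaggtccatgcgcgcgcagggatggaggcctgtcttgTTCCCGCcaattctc
Rpa3, chr6:8259142-8259261, minus strand: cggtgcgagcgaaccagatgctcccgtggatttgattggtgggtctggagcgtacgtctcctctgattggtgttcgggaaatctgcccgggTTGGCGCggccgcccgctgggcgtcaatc
Rrm1, chr7:102441575-102441694, plus strand: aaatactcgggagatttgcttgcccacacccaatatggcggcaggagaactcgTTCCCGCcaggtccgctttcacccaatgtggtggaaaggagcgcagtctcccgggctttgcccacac

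The Mcm6 window held 2 matches, starting 109 and 46 bases before the start. Those of Mcm7, Prim1, Rpa3 and Rrm1 began 113, 15, 29 and 67 bases before it. A match describes these letters and is not a shown site of binding.

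All 39 DNA replication genes had a higher mean in TGF-β3 monolayers than in vehicle monolayers, by small amounts. The difference ran from 0.01 for Tk1 to 0.31 for Prim1 on the log2 scale, with a median of 0.14, which is 1.10-fold. The standard error of a single gene was 0.08 to 0.13, and the 95% interval lay above 0 in 5 genes. None of the 39 passed the test, which was limma across all 20848 genes with Benjamini-Hochberg adjusted p under 0.05. No gene on the array did either (0%, or 0 genes; smallest adjusted p = 0.684). With a replicate block for the pairs, 2 genes of the array passed (0.00959%) and again none of the 39 (smallest adjusted p = 0.404). Before adjustment, 5 members (12.8%) had a p under 0.05, all higher, where 3.03% of all genes were higher at that level and 5.16% differed in either direction. Among genes of like signal, as classed below, 5.06% were higher at that level. The 5 members were Gins1, Gins2, Rfc3, Rfc4 and Prim1. No member's 95% interval reached a 2-fold difference, and the highest upper bound was 0.61, for Prim1.

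A difference above 0 was common among genes of like signal, so the count of 39 has to be read against them. Over all genes, 52.8% were higher in TGF-β3 monolayers and the median difference was 0.01. The difference depended on signal: when genes were ordered by mean signal over the 6 arrays and split into 5 classes of equal size, the median was -0.08, -0.08, 0.01, 0.12 and 0.08 from the dimmest to the brightest class. The members lay in the upper 3 classes, with 5, 16 and 18 genes. In those classes, weighted as the members fall into them, 83.7% of genes were higher. The members' median was 0.12, 0.14 and 0.17 in these 3 classes, and 32 of the 39 lay above the median of their own class, by a median of 0.04. In the brightest class 17 of 18 members lay above it, and in the next 10 of 16.

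**Figure D1:**
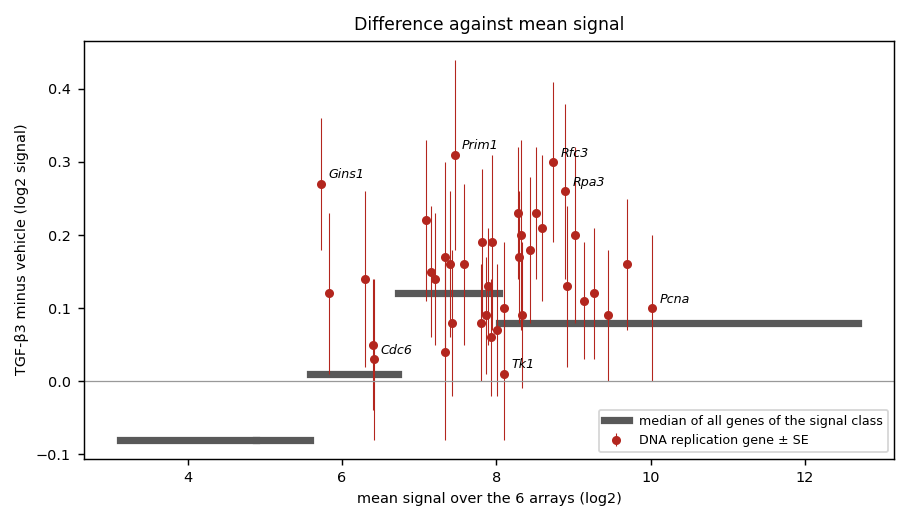
Difference between TGF-β3 and vehicle (vertical axis, log2 signal) of each DNA replication gene (points, with standard error) against its mean signal over the 6 arrays (horizontal axis, log2), with the median of all genes in each signal class as grey bars. The bars run from -0.08 for dim genes to 0.12 and 0.08 for bright ones, and 32 of the 39 points lie above the bar of their class.

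Array by array, the mean log2 signal of the 39 genes was 7.94, 8.01 and 8.12 in TGF-β3 samples 1, 2 and 3, against 7.89, 7.90 and 7.84 in vehicle samples 1, 2 and 3. Every TGF-β3 array lay above every vehicle array, and TGF-β3 sample 3 was the highest of the 6. The group means were 8.02 ± 0.09 in TGF-β3 and 7.88 ± 0.04 in vehicle (SD, n = 3 each). The differences within the pairs were 0.05, 0.11 and 0.28, so pair 3 had more than the other two together. Genes of the same classes differed by 0.03, 0.05 and 0.18 in the same pairs, which left 0.02, 0.05 and 0.10 for the members beyond them.

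The vehicle 3 array stood apart from the other 5. Its gene signals had a narrower spread (SD over genes 1.58, against 1.68 to 1.74 on the others), and genes of the members' signal range lay 0.14 below their 6-array mean there. The members lay 0.11 below theirs on this array, about as far as those genes. TGF-β3 sample 3 had the members at 0.17 above their mean and the genes of the same classes at 0.04 above. Relative to these genes, the members stood at -0.07, 0.03 and 0.13 on the TGF-β3 arrays, against -0.10, -0.02 and 0.02 on the vehicle arrays. On this scale the groups overlapped, and both arrays numbered 1 were the lowest. The number means spanned -0.08 to 0.08, more than the mean treatment difference of 0.06 on the same scale.

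**Figure D2:**
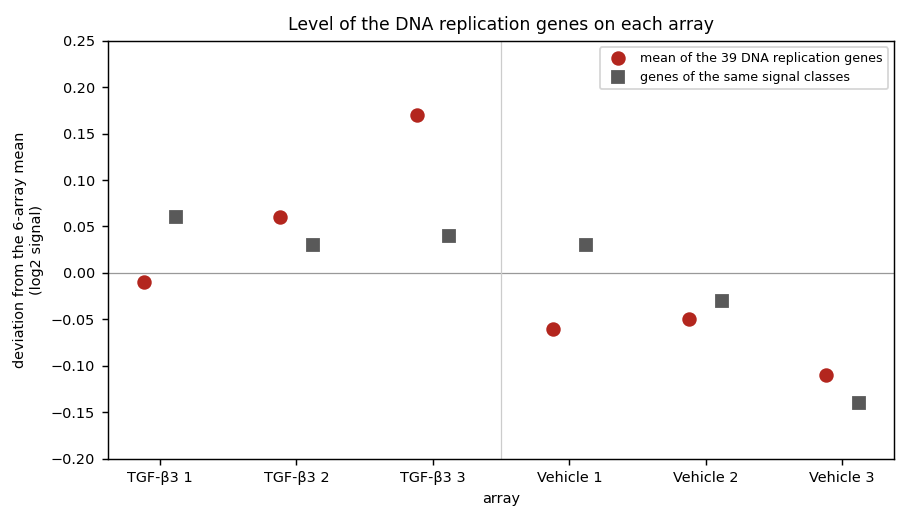
Deviation of the mean log2 signal from its 6-array mean (vertical axis) on each array (horizontal axis), for the 39 DNA replication genes (circles) and for genes of the same signal classes (squares). The circles lie at 0.17 for TGF-β3 sample 3 and -0.11 for vehicle sample 3, where the squares lie at 0.04 and -0.14.

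Within the pairs, 30 of the 39 members were higher in pair 1, 34 in pair 2 and 38 in pair 3. Among genes of the same classes these shares were 61.5%, 69.2% and 84%, and the members' shares were 76.9%, 87.2% and 97.4%. In 33 members pair 3 gave the largest of the 3 differences, a count not made for other genes. Over all genes of the brightest class the medians were 0.02, 0.04 and 0.19 in pairs 1 to 3. They were 0.04, 0.08 and 0.23 in the next class, and 0.01, 0.03 and -0.02 in the middle class. A largest difference in pair 3 was thus not particular to the members. In all, 24 members (61.5%) were higher in 3 of 3 pairs, where 24% of all genes and 41.5% of the genes of the same classes were. The groups did not overlap for 6 members (15.4%), against 6.84% of all genes and 11.9% of the genes of the same classes. These 6 were Gins1, Gins2, Rfc3, Rfc4, Rpa3 and E2f1.

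**Figure D3:**
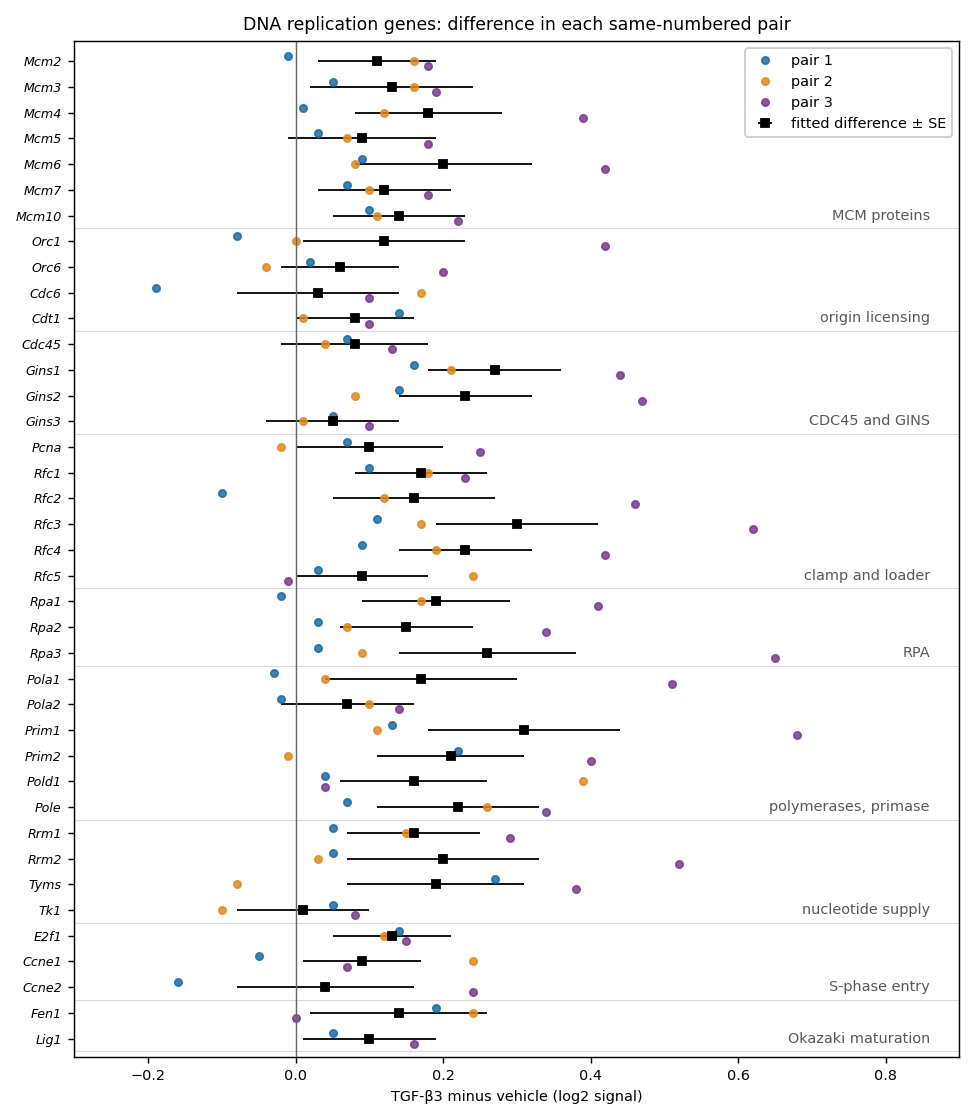
TGF-β3 minus vehicle (horizontal axis, log2 signal) for each of the 39 genes (rows, by role): circles are the 3 same-numbered pairs and the square is the fitted difference with its standard error. All squares lie right of 0, between 0.01 and 0.31, and pair 3 is the rightmost circle in 33 rows.

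The MCM genes encode the helicase ring, and MCM10 helps to start the forks. All 7 were higher, by 0.09 to 0.20 with a median of 0.13, 6 of them in 3 of 3 pairs, and none passed the test. Mcm4 had log2 signals of 8.38, 8.58 and 8.62 in TGF-β3 samples 1 to 3, against 8.37, 8.45 and 8.23 in vehicle samples 1 to 3. The difference of 0.18 (SE 0.10) came with overlapping groups, since TGF-β3 sample 1 was level with the vehicle samples. Mcm6, with 2 E2F cores before its start, had 8.90, 9.15 and 9.30 in TGF-β3 and 8.81, 9.07 and 8.88 in vehicle, a difference of 0.20 (SE 0.12). Its vehicle sample 2 lay above TGF-β3 sample 1, while both were below TGF-β3 samples 2 and 3. Mcm7 had 9.20, 9.33 and 9.45 in TGF-β3, against 9.12, 9.24 and 9.28 in vehicle. The groups overlapped although each pair was higher in TGF-β3, and the fitted difference was 0.12 (SE 0.09). Mcm2, Mcm3, Mcm5 and Mcm10 differed by 0.11, 0.13, 0.09 and 0.14.

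The genes for origin licensing had the lowest median difference of any role. Orc1 and Orc6 encode origin recognition subunits, and CDC6 and CDT1 load the MCM ring. Their median was 0.07, and only Cdt1 was higher in 3 of 3 pairs. Orc1 had 5.86, 5.74 and 6.07 in TGF-β3, against 5.94, 5.73 and 5.65 in vehicle. The groups overlapped, and the difference of 0.12 (SE 0.11) came from pair 3 (0.42), with -0.08 in pair 1. It was -0.04 without both samples of number 3. Orc6 had 7.97, 7.90 and 8.01 in TGF-β3 and 7.94, 7.94 and 7.80 in vehicle, a difference of 0.06 (SE 0.08) that was -0.05 after cyclic loess normalization. Cdt1 had 7.94, 7.78 and 7.81 in TGF-β3 and 7.81, 7.77 and 7.70 in vehicle. Its difference was 0.08 (SE 0.08), or -0.03 after cyclic loess, and the highest array was TGF-β3 sample 1. Cdc6 differed by 0.03 (SE 0.11), with -0.19 in pair 1.

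Genes that turn the loaded ring into a helicase differed unevenly. Gins1, a subunit of the GINS complex, had 5.73, 5.85 and 6.03 in TGF-β3, against 5.57, 5.64 and 5.58 in vehicle. Every TGF-β3 sample was above every vehicle sample, and the difference was 0.27 (SE 0.09, limma adjusted p = 0.684). Its signal lay in the middle class of all genes, and 7 of its 8 probe sets were higher. Gins2, its partner subunit, had 8.30, 8.34 and 8.53 in TGF-β3 and 8.17, 8.26 and 8.06 in vehicle. These groups did not overlap either, though TGF-β3 sample 1 was close to vehicle sample 2, and the difference was 0.23 (SE 0.09, limma adjusted p = 0.684). All 4 of its probe sets were higher. Gins3, a further GINS subunit, differed by 0.05 (SE 0.09) and Cdc45 by 0.08 (SE 0.10).

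The sliding clamp and its loader included 2 of the largest differences. PCNA holds polymerases on the template, and replication factor C, with subunits RFC1 to RFC5, opens the clamp and loads it. All 6 genes were higher, with a median of 0.17, and all 6 lay above the median of their signal class. Rfc3 had 8.76, 8.78 and 9.12 in TGF-β3, against 8.66, 8.61 and 8.51 in vehicle, with no overlap. The difference of 0.30 (SE 0.11, limma adjusted p = 0.684) was made of 0.11, 0.17 and 0.62 in pairs 1 to 3, and 9 of 9 probe sets were higher. Rfc4 had 8.57, 8.52 and 8.77 in TGF-β3 and 8.48, 8.33 and 8.35 in vehicle, a difference of 0.23 (SE 0.09) without overlap. All 10 probe sets of Rfc4 were higher. Pcna itself had 10.00, 9.94 and 10.28 in TGF-β3 and 9.93, 9.95 and 10.03 in vehicle. Only TGF-β3 sample 3 stood clear of the vehicle samples, and the difference of 0.10 (SE 0.10) was -0.0025 without that array. Rfc1, Rfc2 and Rfc5 differed by 0.17, 0.16 and 0.09.

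RPA coats single-stranded DNA at the fork. Its 3 subunit genes were higher by 0.15 to 0.26, mostly in pair 3, where the median was 0.41, against 0.03 in pair 1. Rpa3, the small subunit, had 8.93, 8.96 and 9.17 in TGF-β3 and 8.90, 8.87 and 8.52 in vehicle. The groups did not overlap, but pairs 1 and 2 differed by only 0.03 and 0.09, and vehicle sample 3 was well below the rest. The fitted difference was 0.26 (SE 0.12). Rpa1, the large subunit, had 7.89, 7.86 and 7.98 in TGF-β3 and 7.91, 7.69 and 7.57 in vehicle, a difference of 0.19 (SE 0.10) with overlap, since vehicle sample 1 was as high as the TGF-β3 samples. Rpa2, the middle subunit, differed by 0.15 (SE 0.09).

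Among polymerase and primase genes Prim1 differed most, followed by Pole and Prim2. Primase lays the RNA primers that polymerase alpha extends, and polymerases delta and epsilon then copy the strands. Prim1, the catalytic subunit of primase, had 7.38, 7.57 and 7.89 in TGF-β3, against 7.25, 7.46 and 7.21 in vehicle. Its difference of 0.31 (SE 0.13, 95% interval 0.01 to 0.61, limma adjusted p = 0.684) was the largest of the 39 and was 0.13, 0.11 and 0.68 in the 3 pairs. The groups overlapped, because vehicle sample 2 lay above TGF-β3 sample 1. Without TGF-β3 sample 3 the difference of Prim1 was 0.17, below those of Fen1 (0.28) and Gins1 (0.19). After cyclic loess it was 0.19, against 0.30 for Gins1, and with the brightest probe set 0.07, against 0.73 for Gins1. Prim2, the large primase subunit, had 8.69, 8.67 and 8.72 in TGF-β3 and 8.47, 8.67 and 8.31 in vehicle. The TGF-β3 samples were close together and the vehicle samples spread, with vehicle sample 2 level with TGF-β3, and the difference was 0.21 (SE 0.10). Pole, the catalytic subunit of polymerase epsilon, differed by 0.22 (SE 0.11) in 3 of 3 pairs, with 36 of 51 probe sets higher. Pold1, the catalytic subunit of polymerase delta, differed by 0.16 (SE 0.10), of which most lay in pair 2 (0.39). Pola1 and Pola2, of polymerase alpha, differed by 0.17 and 0.07.

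Genes of nucleotide supply were split. Rrm1 and Rrm2 encode ribonucleotide reductase, which makes deoxynucleotides, while thymidylate synthase and thymidine kinase make thymidine nucleotides. Rrm1 had 9.65, 9.82 and 9.84 in TGF-β3 and 9.60, 9.67 and 9.55 in vehicle, a difference of 0.16 (SE 0.09) that was above 0 in each pair. Only vehicle sample 2 reached into the range of the TGF-β3 samples. Rrm2, the subunit made mainly in S phase, had 8.21, 8.47 and 8.59 in TGF-β3 and 8.16, 8.44 and 8.07 in vehicle. Pairs 1 and 2 differed by 0.05 and 0.03 and pair 3 by 0.52, and the groups overlapped (difference 0.20, SE 0.13). Tyms differed by 0.19 (SE 0.12) on 3 probe sets, 3 more being shared in the probe table with a pseudogene and left out. Tk1 had the smallest difference of the 39, 0.01 (SE 0.09, 95% interval -0.19 to 0.21).

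The regulators of S-phase entry differed little. E2f1, the transcription factor, had 7.91, 7.93 and 8.03 in TGF-β3, against 7.78, 7.82 and 7.88 in vehicle. The groups did not overlap, the pairs were close to each other at 0.14, 0.12 and 0.15, and the fitted difference was 0.13 (SE 0.08, limma adjusted p = 0.684). Genes of its signal class had a median of 0.12. Ccne1, one of the cyclin E genes, had 7.80, 7.98 and 7.93 in TGF-β3 and 7.85, 7.74 and 7.86 in vehicle. Here the groups overlapped, the difference was 0.09 (SE 0.08), and it was -0.03 after cyclic loess. Ccne2, the other cyclin E gene, differed by 0.04 (SE 0.12), with -0.16 in pair 1 and 0.24 in pair 3.

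Both genes of lagging-strand maturation were higher in the mean. Fen1, a flap endonuclease, had 6.51, 6.50 and 6.11 in TGF-β3 and 6.32, 6.26 and 6.11 in vehicle, a difference of 0.14 (SE 0.12) that was 0.00 in pair 3. Both arrays numbered 3 were the lowest, and the groups overlapped. Lig1, DNA ligase I, had 8.01, 8.21 and 8.25 in TGF-β3, against 7.96, 8.11 and 8.09 in vehicle. Its groups overlapped, and the difference of 0.10 (SE 0.09) was -0.01 after cyclic loess.

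The members' probe sets, which lie along each transcript, pointed mostly the same way. Of 577 probe sets, 449 (77.8%) were higher in TGF-β3, against 56.4% of all 213361 probe sets (median 0.13, against 0.03). Probe sets of like signal were not counted. By gene, 83.7% of the genes of the members' signal classes were higher, so the 56.4% is not a matched background. Alone, 0 member probe sets passed the test, as among all probe sets (0%). In 38 of the 39 genes most probe sets were higher. Gins3 was the exception, with 2 of 5. All were higher in 5 genes, namely Gins2, Rfc3, Rfc4, Rfc5 and Rpa3. Probe sets of 1 gene share the RNA sample and are not replicates. With only the brightest probe set of each gene, 31 of the 39 members were higher and the median was 0.055. Of all genes, 43% were higher in this setting, with a median of -0.025, and genes of like signal were not counted.

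The members whose promoter matched a searched E2F core differed by 0.03 to 0.31, with a median of 0.16 over 17 genes. The 15 without a match differed by 0.01 to 0.20, with a median of 0.11. The ranges overlapped and no test was made of this difference, nor were the groups set against their signal classes. Members without a listed promoter are in neither group. These were Mcm4, Gins1, Gins2, Rfc2, Prim2, Pole and Ccne2, and they differed by 0.04 (Ccne2) to 0.27 (Gins1). Prim1, with the largest difference, was among the genes with a match, and Tk1, with the smallest, among those without.

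The size of the shared difference depended on how the arrays were scaled. It was 0.144 as deposited, 0.101 after quantile normalization, 0.082 after median centring and 0.046 after cyclic loess, which removes shifts that depend on signal. The median over all genes was 0.011, -0.015, -0.051 and -0.000 in the same settings. Median centring shifts all genes of an array alike, so it lowered both medians and not the members relative to all genes. After cyclic loess 29 members were higher (74.4%, against 49.8% of all genes and 51.9% of the genes of the same classes), and after quantile normalization 35 (89.7%, against 45.4% of all genes and 69.7% of the genes of the same classes). By role after cyclic loess, all genes of the clamp and its loader and of RPA were higher, 6 of 7 MCM genes and 5 of 6 polymerase and primase genes were, and 1 of 4 licensing genes and 1 of 3 regulators of S-phase entry were. The other roles had 3 of 4 for CDC45 and GINS, 3 of 4 for nucleotide supply and 1 of 2 for lagging-strand maturation. Without both samples of number 3 the median was 0.077 and 34 of the 39 members were higher. All genes then had a median of 0.011 and 54.8% were higher, and genes of like signal were not counted.

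**Figure D4:**
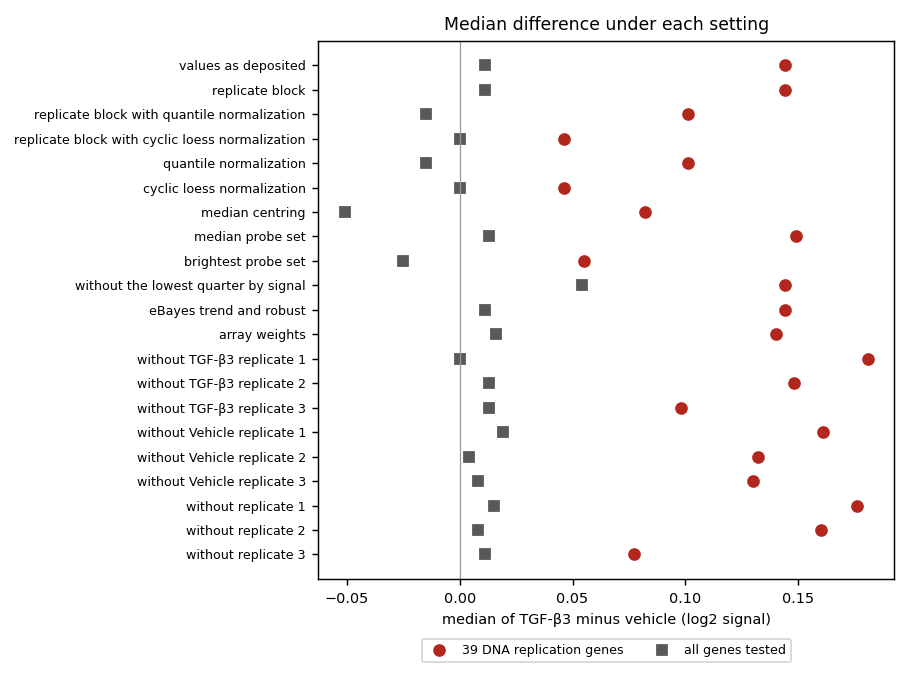
Median of TGF-β3 minus vehicle (horizontal axis, log2 signal) under each way of processing the data (rows), for the 39 DNA replication genes (circles) and for all genes tested (squares). The circles lie between 0.046 after cyclic loess and 0.181 without TGF-β3 sample 1, right of the squares in every row.

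Other genes of replication were also mostly higher. Of 35 further genes of origins and forks, 34 were higher (97.1%, against 70.9% of the genes of their signal classes) and 1 lower, with a median of 0.10. None passed the limma test. Before adjustment 4 had a p under 0.05, all higher (11.4%, against 4.02% of the genes of their classes). Pole2, a subunit of polymerase epsilon, had 6.87 ± 0.23 in TGF-β3 and 6.50 ± 0.05 in vehicle (SD, n = 3 each), a difference of 0.37 (SE 0.12). Donson, a replication fork protein, differed by 0.25 (SE 0.10). Of these 35, 26 (74.3%) were higher after cyclic loess, against 50.8% of the genes of their signal classes. All 13 measured genes of further nucleotide supply were higher, with a median of 0.10, but 7 after cyclic loess. Among them were Dut, which keeps uracil out of DNA, at 0.32 (SE 0.10), and Umps, of pyrimidine synthesis, at 0.23 (SE 0.10). The 8 genes of chromatin assembly had a median of 0.12, with the histone chaperones Asf1a and Nasp at 0.33 (SE 0.17) and 0.27 (SE 0.10). In Asf1a the difference was 0.93 in pair 3, against -0.01 and 0.07 in pairs 1 and 2. The 15 genes of the E2F, retinoblastoma and CDK2 group had a median of 0.14, with 9 higher after cyclic loess. E2f5 and E2f6 both differed by 0.20 (SE 0.12 and 0.11), and Ccna2, cyclin A of S and G2 phase, by 0.11 (SE 0.11). None of these lists had a gene past the test. Most genes of the last 3 lists lay in the 2 brightest classes, where 88.7% and 88.1% of all genes were higher. Above the median of their class lay 9 of 13 genes of nucleotide supply, by a list median of 0.02. In chromatin assembly 5 of 8 did (list median 0.04), and in the E2F, retinoblastoma and CDK2 group 9 of 15 (list median 0.03).

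Genes of mitosis were higher too. All 22 measured genes were higher, where 88.3% of the genes of their signal classes were, with a median of 0.18. None passed the limma test, and 3 had a p under 0.05 before adjustment, all higher (13.6%, against 4.48% of the genes of their classes). After cyclic loess 21 were higher (median 0.09), against 51.6% of the genes of their classes. Hmmr, a spindle protein, differed by 0.38 (SE 0.11) and Ndc80, of the kinetochore, by 0.26 (SE 0.08). Mki67, the usual proliferation marker, differed by 0.10 (SE 0.15). Relative to genes of the same classes, the mitotic genes stood at -0.21, 0.09 and 0.12 in sample numbers 1, 2 and 3, where the replication genes stood at -0.08, 0.01 and 0.08. Both sets were thus lowest in the cultures numbered 1, and the difference between the sets was not tested.

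The brakes on the cycle, listed together with cyclin D1 and Myc, which promote it, differed in both directions. Of the 7 CDK inhibitor genes with cyclin D1 and Myc, 5 of 9 were higher (55.6%, against 69% of the genes of their signal classes), with a median of 0.03 and 0 past the limma test, also before adjustment. Cdkn2b, an inhibitor gene that TGF-β induces in many epithelial cells, had 5.31 ± 0.12 in TGF-β3 and 5.36 ± 0.21 in vehicle (SD, n = 3 each), a difference of -0.05 (SE 0.12). It was dim, in a signal class with a median difference of -0.08, and 1 of its 2 probe sets was higher. Whether Cdkn2b was detected at all was not tested. Cdkn2d, which encodes the p19 inhibitor of cyclin D kinases, differed by 0.09 (SE 0.09). Cdkn1a, which encodes p21, differed by 0.04 (SE 0.13). Myc, a growth-promoting factor that TGF-β represses in many epithelial cells, differed by -0.07 (SE 0.09), lower in 3 of 3 pairs. Ccnd1 differed by 0.03 (SE 0.08). Among 7 measured early targets of TGF-β, 6 were higher, with a median of 0.08, and none passed. They lay in the upper 3 signal classes, where 52.4%, 88.7% and 88.1% of all genes were higher. Of the 7 targets, 4 lay above the median of their class, the median beyond it was 0.01, and 3 were higher after cyclic loess. Smurf2, a ubiquitin ligase of the pathway, differed by 0.11 (SE 0.08), Klf10, a transcription factor, by 0.19 (SE 0.18), and Smad7, the inhibitory SMAD, by 0.05 (SE 0.09).

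Most markers of the labelled cell type had high signals in both groups. Epcam averaged 9.92 in TGF-β3 and 9.85 in vehicle, Cdh1 10.22 and 10.20, and Krt8 11.82 and 11.76, while Krt19 was dim at 4.92 and 4.93. Of the 6 epithelial markers, 3 were higher. Endothelial markers averaged 4.71 to 5.11 in TGF-β3 and 4.76 to 5.16 in vehicle, in the 2 dimmest classes of all genes, and 0 of 4 were higher, with Kdr at -0.08 (SE 0.10) and Tek at -0.05 (SE 0.09). Fibroblast markers were mixed, with Col1a1 at 9.22 in TGF-β3 and 9.06 in vehicle, and Dcn at 4.29 and 4.38. Of the 6 fibroblast markers, 4 were higher, with Pdgfrb at 0.28 (SE 0.14). Markers of macrophages were higher in 3 of 5 cases, of adipocytes in 1 of 4 and of lymphocytes in 0 of 3, and no marker passed the test. Of all genes in the 2 dimmest classes, only 15.5% and 19.3% were higher. Above the median of their class lay 3 of 4 endothelial, 3 of 4 adipocyte, 2 of 5 macrophage and 0 of 3 lymphocyte markers. So did 2 of 6 fibroblast and 1 of 6 epithelial markers. The macrophage receptor gene Csf1r differed by 0.36 (SE 0.15), while the macrophage gene Adgre1 was dim and differed by -0.15 (SE 0.09). Of the lymphocyte markers, Ptprc differed by -0.22 (SE 0.11) and Cd3e by -0.17 (SE 0.10), both lower in 3 of 3 pairs. Of the adipocyte markers, Fabp4 differed by -0.10 (SE 0.10) and Adipoq by -0.02 (SE 0.11). Whether other cells had a part in the differences of the replication genes was not tested.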

How the data were processed

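RNA of 6 EpH4 samples was measured on Affymetrix mouse whole-transcript gene arrays. The authors deposited 1 table of log2 signals for 241576 probe sets, made with RMA in Affymetrix Power Tools per the submitters' processing notes. Its version was not given in the labels. The values ran from 2.96 to 13.07 and array medians from 6.56 to 6.64. Detection calls were not used, so no background level is known. Precision is limited by there being 6 arrays.

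Of the probe sets, 213361 had 1 gene symbol in the platform table, with old symbols updated through RefSeq synonyms. Their mean per gene gave 20848 genes, with no filter. The 39 members had 3 to 51 probe sets each (median 11), and 17 more probe sets that 8 members share with other symbols were left out. Signals of different genes are not comparable as levels.

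The comparison used limma 3.58.1 under R 4.3.3 (lmFit and eBayes without a block, Benjamini-Hochberg over all genes, threshold 0.05). It was tried on simulated data with changes larger than any member's difference and without shifts by signal or sample number. That trial therefore does not cover differences of the size seen here. Differences are TGF-β3 minus vehicle. P-values measure the spread between these cultures. Deviations from the group means correlated at 0.62, 0.41 and 0.22 between same-numbered arrays, and at -0.49 to 0.17 between the others, highest for TGF-β3 sample 2 with vehicle sample 3. The title numbers were taken as pairs on this basis, since the labels do not tie them to the experiments, so the values by pair depend on it. Every member may be named. Given array by array are the 2 members of each role with the smallest p and the one with the highest signal. Of each other list the 2 genes with the smallest p and a few named in advance are given. The members and lists were chosen with earlier results of these data known, and lists were only counted. Some listed genes are not reported here. Alternatives were the replicate block, other normalizations, other summaries of probe sets, a signal filter, other variance settings, array weights and leaving out arrays. Summaries used pandas 2.3.3 (Python 3.11.15), and plots matplotlib 3.10.9.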

Additional observations from a re-analysis of the deposited data

How the results depend on the processing

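None of the 39 genes passed under any of the 21 alternatives tried. The number of genes called on the whole array was 0 as deposited, 2 with the replicate block, 1 with the block and quantile normalization, 1 with the block and cyclic loess, and 0 to 2 when arrays were left out (1 without vehicle sample 1, 2 without both samples of number 1). The members' median difference of 0.144 stayed above 0 throughout. It was 0.046 after cyclic loess, with or without the replicate block, and 0.055 with the brightest probe set. Leaving out 1 array or 1 number gave 0.077 to 0.181, lowest without both samples of number 3 and 0.098 without TGF-β3 sample 3. The pairing changed no call among the members. Of 420 values for the 21 genes given array by array, 15 had the opposite sign. With cyclic loess, with and without the replicate block, these were Orc6 (-0.05), Cdt1 (-0.03), Ccne1 (-0.03) and Lig1 (-0.01). Orc6 was also -0.0002 after median centring, -0.08 with the median probe set and -0.01 without both samples of number 3, where Orc1 was -0.04. With the brightest probe set Mcm4 was -0.03 and Orc1 -0.11, and Pcna was -0.0025 without TGF-β3 sample 3. When arrays were left out, Orc1 ran from -0.04 to 0.21, Orc6 from -0.01 to 0.11, Pcna from -0.0025 to 0.17, Prim1 from 0.12 to 0.42, Gins1 from 0.18 to 0.34 and Fen1 from 0.08 to 0.28. The cause was not tested. The test of each probe set alone gives no count of genes. Differences of the size seen here are near the error that 3 arrays a group allow.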

Other observations

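The replication-dependent histone genes, which supply histones to newly copied DNA, differed in both directions. Of 32 measured, 20 were higher (62.5%, against 52.8% of all genes) and 12 lower in TGF-β3 monolayers. The median was 0.04, and 11 lay above the median of their signal class. None passed the limma test, and 2 of the 32 had a p under 0.05 before adjustment, both higher, where 3.03% of all genes were. H2ac20, a histone H2A gene, averaged 5.84 ± 0.34 in TGF-β3 and 5.02 ± 0.35 in vehicle (SD, n = 3 each), a difference of 0.82 (SE 0.20, limma adjusted p = 0.684), higher in 3 of 3 pairs without overlap. H2bc22, a histone H2B gene, averaged 4.96 ± 0.32 in TGF-β3 and 4.28 ± 0.39 in vehicle (SD, n = 3 each), a difference of 0.68 (SE 0.21) with overlapping groups. Both genes were dim, H2bc22 in the dimmest signal class and H2ac20 in the next. Each rests on 1 probe set. Copies of histone genes are nearly identical, so their probe sets may read more than the named gene.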
